A study of Caenorhabditis elegans with 2 samples.

Results

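The genes described here are the long intergenic noncoding RNA (lincRNA) genes of Caenorhabditis elegans, and the measurement is where the protein LIR-3 was found on the chromosomes around them. The members are all 194 nuclear genes that Ensembl release 115 (WBcel235, the ce11 build) gives the biotype lincRNA, of 46890 nuclear genes in all. They were chosen by annotation alone, with no measured value. Of them, 169 carry a name of the linc series, and the rest carry sequence names, apart from lep-5. The binding data come from chromatin immunoprecipitation and sequencing (ChIP-seq) of whole hermaphrodite L1 larvae collected 6 h after synchronization, which was done by starving hatched larvae after bleaching. The animals were of the strain OP312, genotype unc-119(ed3) III; wgIs312. Its transgene expresses LIR-3 with GFP and FLAG at the C-terminus, and an antibody against GFP was used. The 2 biological replicates form a single group with nothing to set it against, so that no difference between conditions could be tested. The tagged protein stands in for LIR-3 itself, and whole larvae mix all cell types.

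A lincRNA is a transcript, usually spliced and polyadenylated like a messenger RNA, that has no recognised protein-coding frame and lies outside protein-coding genes. Most lincRNAs of the worm were annotated from transcriptome data and have no assigned function. An exception is lep-5, an RNA of the developmental timing pathway. LIR-3 is a zinc finger protein of the LIN-26 family. In ChIP-seq, a peak is a stretch where precipitated fragments pile up, and its summit is the highest position. A peak near a 5' end places the protein there and does not say which of the neighbouring genes, if any, it acts on.

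The main list is the optimal IDR set, which keeps peaks by their irreproducible discovery rate, a measure of how well replicates match. It has 1894 nuclear peaks. The 3 lists from before that threshold, for replicate 1, replicate 2 and both pooled, hold 30000 regions each, background included. The score of a peak is the authors' own signal value, has no stated unit and is used only to rank peaks within 1 list. On the nuclear chromosomes the IDR set held the 1894 highest-scoring regions of the pooled list, with a lowest score of 89.9 and a median of 159. Read depth is unknown. The control experiment and the signal tracks were not analysed here, so enrichment over the control at lincRNA genes was not checked. Intervals are exact Clopper-Pearson 95% intervals over genes and cover counting error only. Offsets are distances from the summit to the annotated 5' end, negative upstream. Starts of transcription were not measured.

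The sequences below show the DNA under some of the peaks that the results turn on, from RefSeq's WBcel235 genome on the strand of the lincRNA, 5' to 3'. Those at M04F3.7, linc-91, linc-84 and linc-43, also within 500 bp of the 5' end, are not printed. Capitals mark the summit with 10 bases on each side. For linc-78 and linc-126 a second run of capitals marks the first 20 bases of the annotated lincRNA. The first set has the other summits within 500 bp of the 5' end, at linc-78 (chrX:2242948-2243134, plus strand), linc-153 (chrV:11644304-11644404, minus), linc-108 (chrV:15566660-15566760, minus), K09A9.12 (chrX:15600165-15600265, plus), linc-2 (chrIII:5024529-5024629, plus), linc-126 (chrIV:8629534-8629629, minus) and linc-37 (chrIII:832851-832981, plus). The second has the strongest 2 summits more than 500 and up to 1000 bp away, at linc-117 (chrV:7084889-7084989, minus) and linc-128 (chrV:1151440-1151540, plus).
linc-78: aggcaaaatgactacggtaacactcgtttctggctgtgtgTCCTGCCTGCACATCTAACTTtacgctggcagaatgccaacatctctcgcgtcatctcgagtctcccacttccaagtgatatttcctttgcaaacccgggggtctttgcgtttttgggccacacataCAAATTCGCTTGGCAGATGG
linc-153: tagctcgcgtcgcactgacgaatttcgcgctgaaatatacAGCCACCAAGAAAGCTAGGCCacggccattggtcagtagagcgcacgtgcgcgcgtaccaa
linc-108: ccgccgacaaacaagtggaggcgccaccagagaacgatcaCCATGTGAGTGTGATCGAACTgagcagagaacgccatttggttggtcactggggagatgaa
K09A9.12: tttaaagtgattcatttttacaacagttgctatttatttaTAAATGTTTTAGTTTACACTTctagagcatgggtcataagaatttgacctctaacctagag
linc-2: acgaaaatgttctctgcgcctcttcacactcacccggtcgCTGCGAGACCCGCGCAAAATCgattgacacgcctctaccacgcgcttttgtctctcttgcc
linc-126: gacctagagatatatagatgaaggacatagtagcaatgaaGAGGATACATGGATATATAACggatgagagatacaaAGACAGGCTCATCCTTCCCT
linc-37: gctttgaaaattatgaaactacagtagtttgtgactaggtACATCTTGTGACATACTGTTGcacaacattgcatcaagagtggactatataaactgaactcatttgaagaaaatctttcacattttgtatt
linc-117: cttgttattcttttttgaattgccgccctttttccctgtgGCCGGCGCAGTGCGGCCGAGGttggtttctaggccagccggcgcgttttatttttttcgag
linc-128: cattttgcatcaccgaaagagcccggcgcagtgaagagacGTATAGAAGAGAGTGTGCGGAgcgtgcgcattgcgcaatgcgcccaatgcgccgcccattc

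LIR-3 was found near few lincRNA genes, about as often as near genes at large at 500 bp. At 500 bp, 11 lincRNA genes had an IDR summit near their 5' end (5.67%, interval 2.86 to 9.92%). The background was 4.33% of all nuclear genes, and 6.17% once the piRNA genes, which form dense arrays with few peaks, were left out. Within 1000 bp the count was 20 lincRNA genes (10.3%, interval 6.41 to 15.5%), against 5.71% of all nuclear genes and 7.87% of those other than piRNA genes. The share at 1000 bp thus lay above both backgrounds, although its interval holds 7.87%. The 11 genes had 11 distinct summits, and the 20 genes had 21, because linc-37 had a summit in each distance class and no summit served 2 lincRNA genes. The difference from other genes was not tested here. Without the peak at M04F3.7, which lies in partly repeated sequence, the counts were 10 and 19.

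The lincRNA share grew with the window more than the share of protein-coding or unclassified ncRNA genes did. At 250 bp it was 2.58% (5 genes), against 2.99% of all nuclear genes, 4.37% of those other than piRNA genes, 3.89% of protein-coding genes and 4.75% of ncRNA genes. At 500 bp it was 5.67%, against 6.09% of protein-coding and 5.8% of ncRNA genes. At 2000 bp it was 17% (33 genes, interval 12 to 23.1%), against 11% and 9.94% of these classes. At 2000 bp the lincRNA interval lay above both of these shares. The shares of all nuclear genes and of those other than piRNA genes were not taken at 2000 bp. The growth was not particular to lincRNA genes. For miRNA genes, another class of noncoding RNA gene, the share was 1.92% at 250 bp, 5.36% at 500 bp and 7.28% at 1000 bp. For the 100 antisense RNA genes it was 2%, 4% and 8%, beside 10.3% of lincRNA genes at 1000 bp. The 500 bp edge fell among values like those elsewhere in the window. Just inside it were M04F3.7 at -481 bp (score 404) and linc-153 at -438 bp (323), and just outside it were linc-27 at -556 bp (151) and linc-128 at 584 bp (465).

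**Figure D1:**
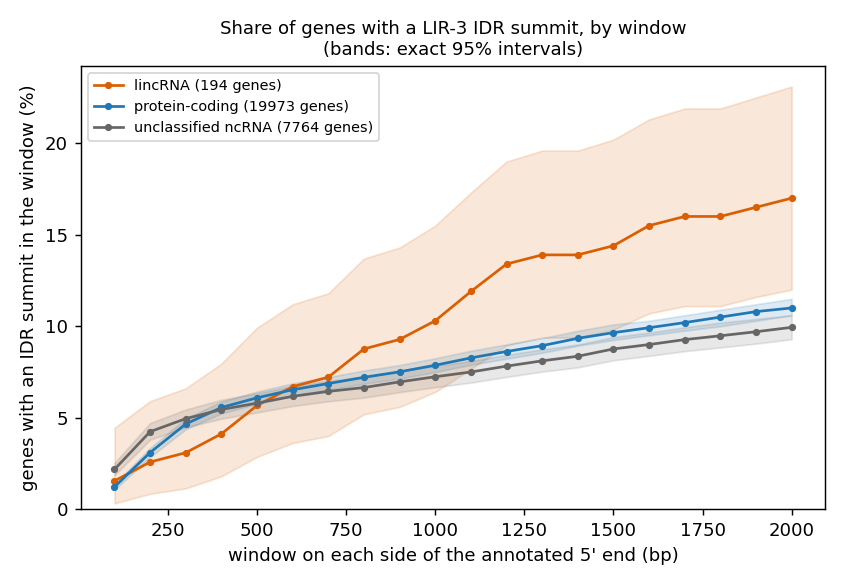
Share of genes with an IDR summit (vertical axis, percent) against the window on each side of the 5' end (horizontal axis, bp) for lincRNA, protein-coding and unclassified ncRNA genes, with exact 95% intervals as bands. The lincRNA line is at 2.58% at 200 bp, lies above both others from 600 bp on and reaches 17% at 2000 bp, with the widest band.

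The peaks at the 11 genes within 500 bp ranged from the upper to the lower end of the IDR set. Their pooled scores ran from 95 to 451 with a median of 239, above the 159 of all nuclear IDR peaks, and 6 of them were among the 947 strongest. None was among the 200 strongest, since the best of them, at linc-78, ranked 225. The summit lay upstream of the 5' end at 10 of the 11 genes, against 75.8% of the 1945 genes other than piRNA genes that had a summit in this window, and the median offset was -168 bp. By chromosome, 3 of the genes were on I, 2 on III, 1 on IV, 2 on V, 3 on X and 0 on II, although II has the most lincRNA genes (43). At 1000 bp, 5 lincRNA genes on II had a summit.

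**Figure D2:**
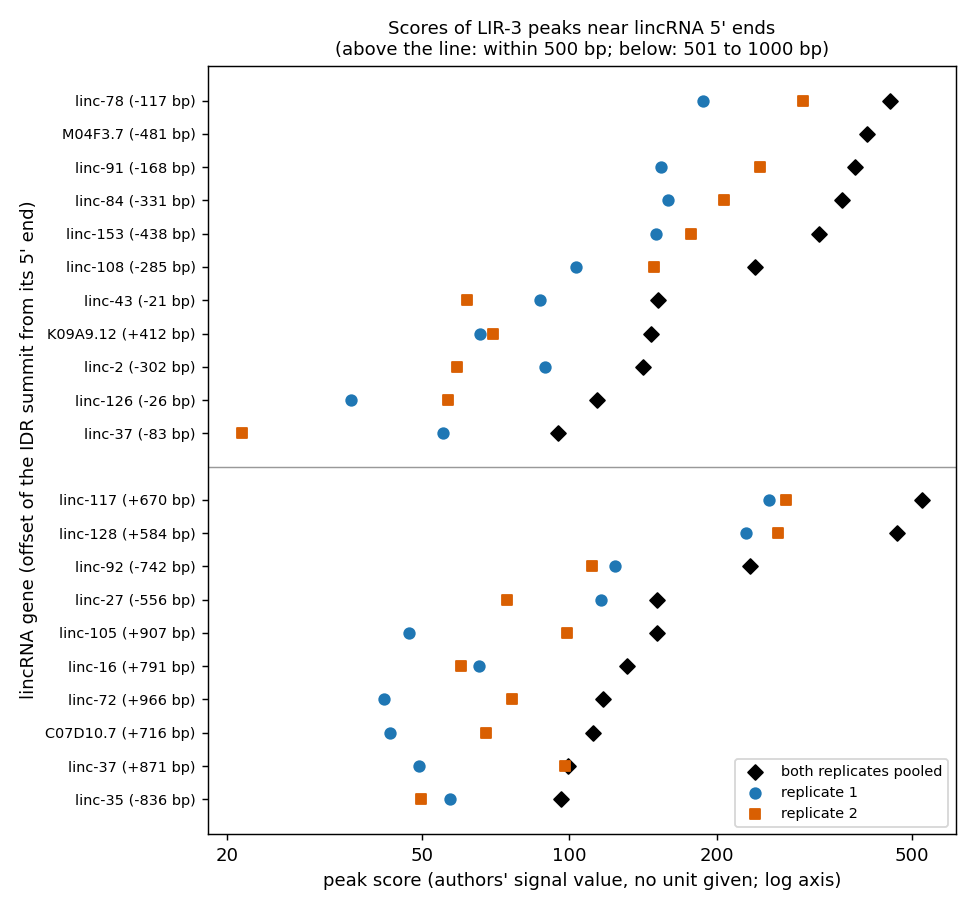
Peak score on a log axis (the authors' signal value, no unit given) for the 21 IDR summits near lincRNA 5' ends, 1 row per summit, with the pooled value as a diamond, replicate 1 as a circle and replicate 2 as a square. The upper rows have summits within 500 bp and the lower rows beyond that, up to 1000 bp. M04F3.7 has no replicate marker, because no replicate region holds its pooled summit, and replicate 2 of linc-37 (-83 bp) stands lowest at 21.5.

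At most of these genes the summit also lay near a protein-coding gene, and at none near a tRNA gene. A protein-coding 5' end lay within 500 bp of the summit for 6 of the 11 genes (54.5%, interval 23.4 to 83.3%). Among the 1945 genes other than piRNA genes with a summit in this window, another protein-coding 5' end lay as near for 38.6%, a share inside the lincRNA interval. Within 1000 bp of the summit it was 10 of the 11 (90.9%, interval 58.7 to 99.8%), the exception being linc-126, against 51.8% of the 1945 genes and 49.1% of ncRNA genes with a summit, both below that interval. No tRNA 5' end lay within 1000 bp of any of the 21 summits at 20 genes (upper limit 16.8%), against 9.68% of the 2480 genes with a summit within 1000 bp. The 6 genes that share a summit within 500 bp are 3.09% of the lincRNA genes (interval 1.14 to 6.61%), against 1.93% of all nuclear genes sharing a summit with another protein-coding or tRNA gene. The lincRNA had the nearest annotated 5' end, ties included, at 7 of the 11 genes, which is 3.61% of lincRNA genes, against 4.02% of nuclear genes other than piRNA genes.

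Most often the lincRNA and the neighbour were transcribed away from each other with the peak between them. This was so at 7 of the 11 genes, counting protein-coding 5' ends on the opposite strand within 1000 bp of the summit, against 32.5% of the 1945 genes of all kinds except piRNA that had a summit within 500 bp. No interval was taken for this share, and the difference was not tested. Only genes with a protein-coding 5' end within 1000 bp of the summit can be counted here, which were 10 of the 11 and 1008 of the 1945. Among those, 7 of the 10 lincRNA genes and 633 of the 1008 genes were divergent. Much of the contrast thus restates how often a protein-coding neighbour was near. The 7 were linc-78, M04F3.7, linc-91, linc-84, linc-153, linc-108 and linc-37, and the first 6 of these carried the 6 strongest peaks of the 11.

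The strongest peak within 500 bp lay at linc-78 (WBGene00219643, chromosome X, 2243115 to 2243239, plus strand), a single-exon RNA of 125 bp. The pooled score was 451 (rank 225), and the replicate scores were 187 (rank 305 in replicate 1) and 299 (rank 160 in replicate 2). The summit at 2242998 was intergenic, at -117 bp, and replicate summits were 31 bp and 0 bp from it. The ncRNA gene AH9.7 starts at the same base on the same strand, so the peak cannot be assigned to either of them. The linc-78 RNA also overlaps the protein-coding gene AH9.1. On the other side lay rpl-11.2, which encodes a protein of the large ribosomal subunit, with the summit at -380 bp from its 5' end.

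At M04F3.7 the pooled peak and the replicates did not place the summit alike. M04F3.7 (WBGene00284852, chromosome I, 4768331 to 4769063, minus strand) had a pooled score of 404 (rank 269) with its summit at 4769544, -481 bp. The nearest summit of replicate 1 was 149 bp away (score 94.5, rank 809) and that of replicate 2 was 104 bp away (293, rank 170). Both lay outside the 500 bp window, at -630 and -585 bp. Only 31.6% of the 31-mers within 100 bp of the pooled summit occur once in the genome, against 100% at the other 20 summits, and the part of repeated sequence in this peak was not tested. The gene across the gap is rpa-2, a subunit of replication protein A, which binds single-stranded DNA. The pooled summit was at -748 bp from its 5' end.

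At linc-91 and linc-84, also on chromosome I, both replicates placed the summit within 32 bp of the pooled one. The peak of linc-91 (WBGene00219746, 4699610 to 4702866, plus strand) scored 383 pooled, 154 in replicate 1 and 245 in replicate 2, with the summit at -168 bp. It is the longest of the 11 genes, at 3257 bp. The summit was at -867 bp from its divergent neighbour chd-7, a chromodomain helicase of the chromatin remodelling kind. The peak of linc-84 (WBGene00219592, 8865945 to 8866624, plus strand) scored 360 pooled, 159 and 207 in replicates 1 and 2, at -331 bp. Here the neighbour was much nearer the summit than the lincRNA: the summit was at -65 bp from F55H12.7, an uncharacterized protein.

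On chromosome V, linc-153 and linc-108 also had a divergent neighbour. At linc-153 (WBGene00219612, chromosome V, 11641024 to 11643916, minus strand) the scores were 323 pooled, 150 in replicate 1 and 177 in replicate 2. The summit at 11644354 was -438 bp from linc-153 and -123 bp from bir-1, which encodes a subunit of the chromosomal passenger complex that acts in mitosis. At linc-108 (WBGene00219586, chromosome V, 15565170 to 15566425, minus strand) the scores were 239, 103 and 149 in the same order. Its summit at 15566710 was nearer to linc-108, at -285 bp, than to acs-2, an acyl-CoA synthetase of fatty acid oxidation, at -684 bp. The peak ranked 426 in replicate 1 and 393 in replicate 2 at linc-153, and 714 and 485 at linc-108.

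At 3 genes the lincRNA and a protein-coding gene begin almost together on the same strand, so that the peak is shared in full. The 5' end of linc-37 (WBGene00219709, chromosome III, 832984 to 833347, plus strand) is 2 bp from that of zip-2, a bZIP transcription factor, that of linc-2 (WBGene00219720, chromosome III, 5024881 to 5025007, plus strand) is 33 bp from that of pcf-11, a protein with the CID domain of RNA cleavage factors, and that of linc-43 (WBGene00219579, chromosome X, 13141635 to 13142031, plus strand) is 34 bp from that of F09A5.3, an uncharacterized protein. All 3 lincRNAs overlap the gene they begin with. Their peaks were among the 5 weakest of the 11.

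The peak shared by linc-43 and F09A5.3 scored 152 pooled (rank 1010), 87.1 in replicate 1 and 61.8 in replicate 2. Its summit at 13141614, -21 bp from linc-43, fell in a 5' UTR of F09A5.3. The peak of linc-2 and pcf-11 scored 141 pooled (rank 1091), 89 and 59.1 in replicates 1 and 2, with the summit 302 bp upstream of linc-2. Both peaks ranked higher in replicate 1 (899 for linc-43 and 874 for linc-2) than in replicate 2 (1543 and 1639). The weakest peak of the 11 was that of linc-37 and zip-2, with 95 pooled (rank 1754), 55.2 in replicate 1 (rank 1545) and 21.5 in replicate 2 (rank 12489). This peak thus stood far down the list of replicate 2 and not in that of replicate 1. A second IDR summit, of score 99.5, lay 871 bp downstream of the linc-37 5' end in an intron of zip-2, and ranked higher in replicate 2 (882) than in replicate 1 (1768). It was 420 bp from the 5' end of K02F3.15, a snoRNA gene. The divergent neighbour of linc-37 was ceeh-1, an epoxide hydrolase, with the upstream summit at -624 bp from its 5' end.

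The other 2 of the 11 peaks were neither at a divergent pair nor at such coinciding starts, and both ranked below the 1000 strongest. At linc-126 (WBGene00219695, chromosome IV, 8628327 to 8629553, minus strand) the pooled score was 114 (rank 1392), and the replicate scores were 35.8 (rank 2865 in replicate 1) and 56.5 (rank 1749 in replicate 2). The summit at 8629579 was at -26 bp, intergenic, with no other annotated 5' end within 1000 bp. The nearest protein-coding 5' end, of dgk-4, is 1780 bp from that of linc-126. At K09A9.12 (WBGene00304776, chromosome X, 15599803 to 15600688, plus strand) the scores were 147 pooled (rank 1053), 65.8 and 69.9 in replicates 1 and 2. This summit, at 15600215, was the only one of the 11 downstream of the 5' end, at 412 bp in an exon, and ent-2, an equilibrative nucleoside transporter on the same strand, began farther on, with the summit at -852 bp from it.

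**Figure D3:**
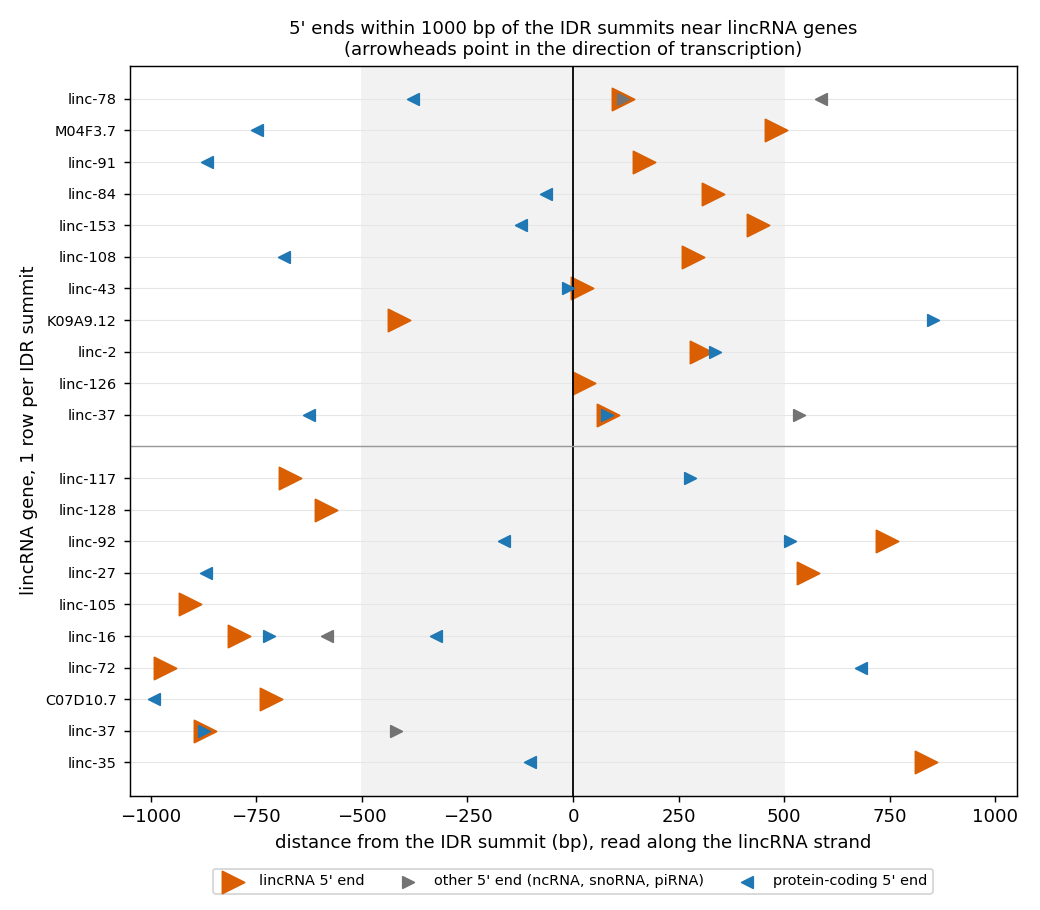
Annotated 5' ends within 1000 bp of each of the 21 IDR summits near lincRNA genes, with the summit at 0 on the horizontal axis (bp, read along the lincRNA strand) and 1 row per summit. Large arrowheads mark lincRNA genes, small ones protein-coding genes or other genes, each pointing in the direction of transcription, and the grey band is 500 bp on each side. Arrowheads that point apart around 0 are the divergent pairs, such as linc-153 (summit at -438 bp) and bir-1 (summit at -123 bp).

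A further 9 lincRNA genes had an IDR summit only beyond 500 bp, up to 1000 bp away. A protein-coding 5' end was within 500 bp of the summit for 4 of them and within 1000 bp for 7. The summit was upstream of the lincRNA in 3 and downstream in 6. Pooled scores ran from 96.3 to 523 with a median of 151, near the 159 of all nuclear IDR peaks.

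The 2 strongest of all 21 peaks belonged to this outer group. At linc-117 (WBGene00219740, chromosome V, 7085069 to 7085609, minus strand) the score was 523 pooled (rank 181), 256 in replicate 1 and 277 in replicate 2. Its summit at 7084939 lay past the end of linc-117, 670 bp downstream of the 5' end and 277 bp upstream of mys-1, which encodes a Tip60-type histone acetyltransferase. At linc-128 (WBGene00219734, chromosome V, 1150906 to 1153207, plus strand) the score was 465 pooled (rank 213), 229 in replicate 1 and 267 in replicate 2. That summit, at 1151490, lay in the single exon of linc-128 with no other 5' end within 1000 bp, and the nearest protein-coding 5' end to that of linc-128, of cmd-1, is 5365 bp away. The replicates gave linc-128 summits within 3 bp of the pooled one, so the strongest peak with a lincRNA as its only gene lay inside the transcribed part.

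In the outer group the 3 upstream summits were again between divergent genes. At linc-92 (WBGene00219698, chromosome V, 5789946 to 5790325, minus strand) the score was 234 pooled, 124 and 111 in replicates 1 and 2, with the summit at -742 bp from the lincRNA and -163 bp from F44E7.9, a Rab5-interacting protein. At linc-27 (WBGene00219713, chromosome II, 6369727 to 6369877, minus strand) it was 151 pooled, 116 and 74.7, with the summit at -556 bp from linc-27 and -870 bp from lin-23, an F-box protein that restrains cell division. At linc-35 (WBGene00219680, chromosome II, 6927637 to 6927825, minus strand) it was 96.3 pooled, 57 and 49.9, with the summit at -836 bp from linc-35 and -102 bp from flcn-1, the folliculin homolog. F44E7.9 and flcn-1 were thus several times closer to the summit than linc-92 and linc-35 were. At linc-92 another protein-coding gene, nhr-142, also began nearer, with the summit at -514 bp from it. It lies on the same strand as linc-92, which overlaps it.

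The summits of the last 4 outer genes were downstream of the lincRNA 5' end. At linc-105 (WBGene00219614, chromosome III, 10718341 to 10719485, plus strand) the scores were 151 pooled, 47.1 in replicate 1 and 98.7 in replicate 2, and the summit lay at 907 bp in an intron of the lincRNA, with no other 5' end within 1000 bp. At C07D10.7 (WBGene00305090, chromosome II, 7379312 to 7381285, minus strand) they were 112, 43 and 67.7 in the same order, and the summit also lay in an intron of the lincRNA, at 716 bp. At linc-16 (WBGene00219728, chromosome II, 1820242 to 1820946, minus strand) they were 131, 65.3 and 60.2, and the summit lay in a 5' UTR of the F-box gene fbxa-3, at -324 bp from fbxc-19, another F-box gene. At linc-72 (WBGene00219590, chromosome II, 8819542 to 8820163, plus strand) they were 117, 41.9 and 76.5, and the summit lay past the lincRNA in a coding exon of F46C5.1. The peaks of linc-105, linc-72 and C07D10.7 ranked higher in replicate 2 (873, 1178 and 1368) than in replicate 1 (1891, 2233 and 2141).

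Counting the whole transcribed part rather than the 5' end, 11 lincRNA genes held an IDR summit (5.67%, interval 2.86 to 9.92%), 1 in each. The background was 1.43% of all nuclear genes and 2.13% of those other than piRNA genes, both below that interval. Of protein-coding genes it was 2.11%, although their median length of 2027 bp exceeds the 761 bp of lincRNA genes. The shares of antisense RNA genes (4%, interval 1.1 to 9.93%) and tRNA genes (7.84%, interval 5.84 to 10.3%) lay inside the lincRNA interval. The 11 lincRNA genes were linc-128, K09A9.12, linc-105 and C07D10.7 from the groups above, linc-153 and linc-91 with a second summit far from the first (score 105 at 2525 bp and 205 at 1749 bp), and 5 genes with no summit within 1000 bp of the 5' end. The 5 were named after their values were seen: linc-146 (score 371, 2112 bp downstream, in an intron), linc-90 (226, 2717 bp, in an intron), linc-110 (154, 4371 bp, in an exon that overlaps the ncRNA genes T09A5.16 and T09A5.21), linc-125 (108, 1516 bp, in an exon) and linc-142 (91.1, 1594 bp, in an exon within an intron of scd-1). All 5 are long genes, from 1921 to 5054 bp, above the median of all lincRNA genes.

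LincRNA genes with a peak lay closer to protein-coding genes than those without. The median distance from the lincRNA 5' end to the nearest protein-coding 5' end was 506 bp for the 20 genes with a summit within 1000 bp and 2143 bp for the 174 without. Of the 33 lincRNA genes with a protein-coding 5' end within 500 bp, 10 had a summit within 1000 bp (30.3%, interval 15.6 to 48.7%). Of the 93 with none within 2000 bp, 2 did (2.15%, interval 0.262 to 7.55%), namely linc-128 and linc-105, and 0 had one within 500 bp (upper limit 3.89%). The intervals of the 2 distance classes at 1000 bp do not overlap, and the difference was not tested further.

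Unclassified ncRNA genes showed the same order with a smaller spread. Of 1442 ncRNA genes with a protein-coding 5' end within 500 bp, 11.6% had an IDR summit within 1000 bp (interval 9.97 to 13.3%), and of 3770 with none within 2000 bp, 5.49% did (4.79 to 6.27%). Up to 500 bp from a protein-coding gene the lincRNA share was thus above that of ncRNA genes placed alike, with intervals that do not overlap. In the comparisons by distance that follow, the intervals overlap. For summits within 500 bp the shares in that class were 15.2% (interval 5.11 to 31.9%) for lincRNA and 10.1% (8.55 to 11.7%) for ncRNA genes. In the next distance class, up to 1000 bp, the shares with a summit within 1000 bp were 12.5% (2.66 to 32.4%) and 9.73% (7.92 to 11.8%). Of 38 miRNA genes with a protein-coding 5' end within 500 bp, 15.8% had a summit within 1000 bp (6.02 to 31.3%), an interval that overlaps that of lincRNA genes. The miRNA shares did not fall steadily with distance. They were 0% in the next class, up to 1000 bp, then 4.65% up to 2000 bp and 7.69% (3.9 to 13.3%) beyond that. For summits within 500 bp the miRNA shares were 7.89%, 0%, 4.65% and 6.29%, from the nearest class to the farthest. Neighbouring genes are not independent, and whether the lincRNA or its neighbour goes with the peak cannot be told apart in these data.

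**Figure D4:**
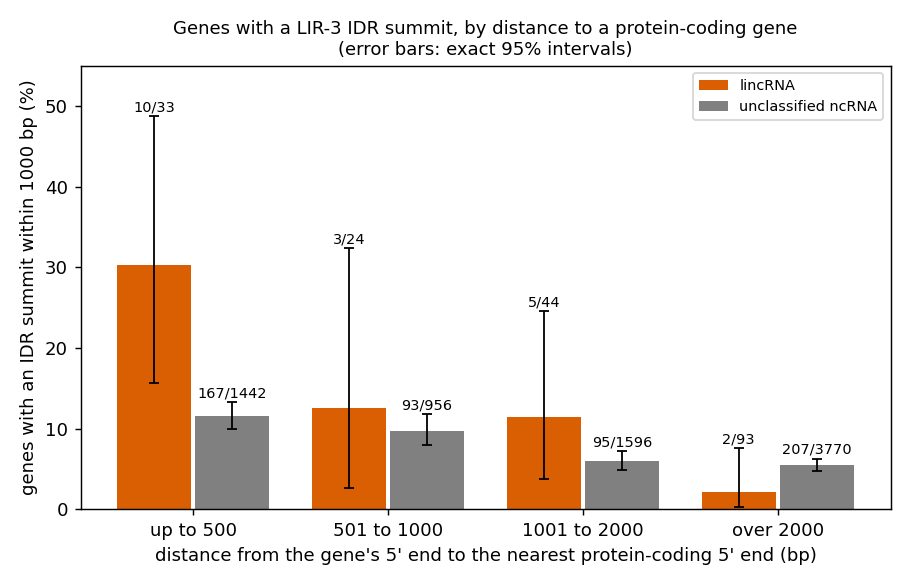
Percent of genes with an IDR summit within 1000 bp of the 5' end (bars, with exact 95% intervals), by distance from that 5' end to the nearest protein-coding 5' end (horizontal axis, bp), for lincRNA genes and unclassified ncRNA genes. Numbers over the bars are genes with a summit of all genes in the class. The lincRNA bars are 30.3% up to 500 bp and 2.15% over 2000 bp.

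Of the other features, gene length differed little between the groups. Single-exon genes and overlaps with a protein-coding gene made up a larger share of the genes with a peak, which was not tested. The median gene length was 692 bp for the 20 genes and 791 bp for the 174. Single-exon genes were 10 of the 20 and 46 of the 174. Despite the biotype's name, 8 of the 20 and 34 of the 174 overlap a protein-coding gene on either strand.

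Before the threshold, the lincRNA shares lay near those of all genes. A pooled summit was within 500 bp of 67 lincRNA genes (34.5%, interval 27.9 to 41.7%), against 36.7% of all nuclear genes and 35.6% of those other than piRNA genes. Within 250 bp it was 43 lincRNA genes (22.2%), against 21.7% and 22.2% of these backgrounds, and within 1000 bp 96 (49.5%), against 55% and 51.4%. At each window the lincRNA interval holds the share of genes other than piRNA genes.

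The replicate lists gave similar counts. At 500 bp, 69 lincRNA genes (35.6%) had a summit in replicate 1, against 36.1% of all nuclear genes and 35.6% of those other than piRNA genes. In replicate 2 it was 70 (36.1%), against 35.7% and 35.8%. At 1000 bp it was 99 in replicate 1 (51%), against 54.3% and 51.2%, and 108 in replicate 2 (55.7%), against 53.6% and 51.6%. The 2 lists did not pick out the same genes throughout, and this held for genes at large too. Of all nuclear genes, 36.1% and 35.7% had a summit within 500 bp in replicates 1 and 2, but 19.6% in both. For lincRNA genes, both lists had a summit at 46 at 500 bp, while 23 had one in replicate 1 only and 24 in replicate 2 only. These 46 are 23.7% of the lincRNA genes (interval 17.9 to 30.3%), against 19.6% of all nuclear genes and 21.1% of those other than piRNA genes. At 250 bp both lists had a summit at 27 (13.9%), against 9.42% and 11.3%, and at 1000 bp at 77 (39.7%), against 37.1% and 35.9%. At 127 lincRNA genes the pooled list had no summit within 500 bp.

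Scores of the 2 replicates rose together over the lincRNA genes with a summit in both lists, but hardly over those without an IDR summit. Over the 46 genes, Spearman's rho between the strongest scores of replicate 1 and replicate 2 was 0.53, and over the 36 of these without an IDR summit it was 0.18. The IDR set was chosen on these same peaks and holds the highest pooled scores. Leaving its genes out removes the high end, so the lower rho is in part set by that choice. The contrast of the 2 values is therefore not separate evidence. These are descriptions across genes, which are not independent replicates. The 56 genes with only pre-threshold pooled regions had best pooled scores from 26.4 to 89.2 with a median of 39.5, near the 36.3 of the whole nuclear pooled list.

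**Figure D5:**
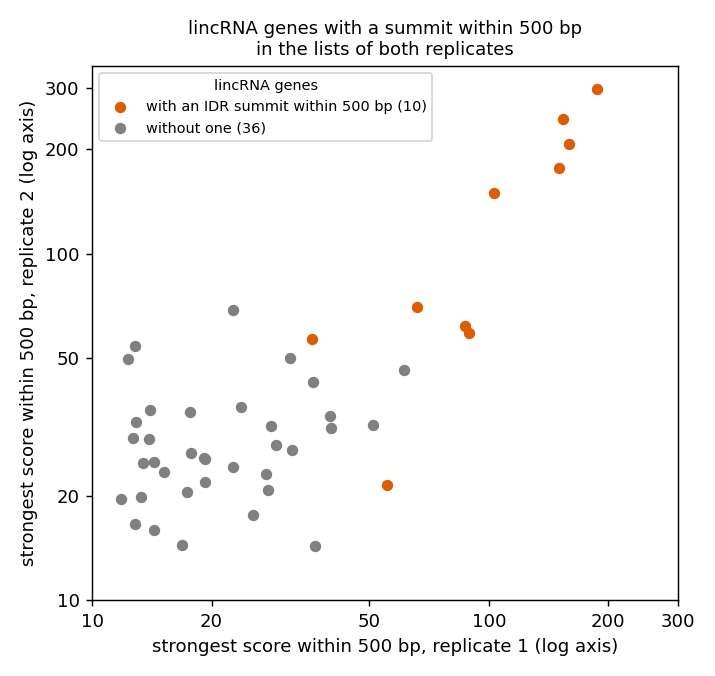
Strongest score within 500 bp of the 5' end in replicate 1 (horizontal, log axis) against replicate 2 (vertical, log axis) for the 46 lincRNA genes that have a summit in both lists. Genes with an IDR summit (10) lie mostly at the upper right, up to 187 and 299 for linc-78, and genes without one (36) form a cloud with a rho of 0.18. The IDR set holds the highest pooled scores, so this separation follows in part from how it was chosen.

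The 5 strongest lincRNA regions just under the threshold all had their summit upstream of the lincRNA 5' end, by less than 200 bp. The highest was at F39E9.10 (WBGene00023036, chromosome II, 3302761 to 3303750, minus strand), with a summit at -3 bp, a pooled score of 89.2 (rank 1917), 31.5 in replicate 1 and 49.8 in replicate 2. No other 5' end lay within 500 bp of that summit. Next came Y41C4A.17 at -173 bp (88.1, and 61.1 in replicate 1, with no region of replicate 2 over the summit) and linc-107 at -109 bp (86.6, and 32 in replicate 2, with no region of replicate 1). Then followed linc-33 at -192 bp (79 pooled, 36 and 42.5 in replicates 1 and 2), whose summit was 18 bp into trpp-9, a gene for a vesicle trafficking complex subunit, and T09F5.12 at -72 bp (75 pooled, 31.9 and 27.1). Apart from that of linc-33, none of these 5 summits had another annotated 5' end within 500 bp, and those of Y41C4A.17 and linc-107 lay in a region of 1 replicate only. Both of these genes nevertheless had a summit within 500 bp in each replicate, with a best score of 46 in replicate 2 for Y41C4A.17 (rank 2286) and of 51 in replicate 1 for linc-107 (rank 1707).

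The developmental timing gene lep-5, singled out after its values were seen because its function is known, had no IDR summit nearby and low-ranked regions in the other lists. Its gene (WBGene00010424, chromosome X, 12652591 to 12653520, minus strand) had the nearest IDR summit at -7708 bp. The nearest pooled summit was at -829 bp with a score of 26, rank 29850 of the list. Replicate 1 had a region at 251 bp (22.5, rank 8089) and replicate 2 one at -855 bp (18.7, rank 17330).

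Short sequence motifs were counted under the 11 summits within 500 bp and under all nuclear IDR summits. In windows of 100 bp on each side of the summit, read on both strands, GAGAGA was present at 6 of the 11 summits, against 40.6% of the 1894 nuclear IDR summits. CACGTG was present at 2 (10.1%), TATAAA at 2 (16.8%), GGGCGG at 0 (8.98%) and GTTCGANNC, letters of the B box that RNA polymerase III genes carry, at 0 (5.17%). Among the matches in the printed sequences, CACGTG of linc-153 lies 33 to 38 bases after the summit, GAGAGA of linc-126 15 to 20 bases after it, and the TATAAA of K09A9.12 ends 7 bases before it. The printed sequences also hold TATAAA at linc-37. On the opposite strand they hold GAGAGA at linc-78 and linc-2, and GGGCGG at linc-117 and linc-128, which are not among the 11. The summit of linc-91 had the most matches, with 7 of GAGAGA on the opposite strand, some overlapping. A match is a run of letters and not a measured site, and 11 windows leave wide error on these shares. A and T made up 57.7% of the bases in the median window of the 11 summits (48.3 to 68.7%), against 58.2% over all nuclear IDR summits.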

How the data were processed

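LIR-3 ChIP-seq peak lists of 2 biological replicates were used. Per the sample file descriptions, the authors called regions for each replicate and for both pooled, with an input file, and then the IDR set. For the peak caller and aligner, names were not given in the sources used here. The deposited score (signal value) and −log10 q-value of each peak are the authors' own. The ce11 lists were used with Ensembl release 115. The ce10 lists were not used. Coordinates are 1-based.

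A gene was counted when a summit lay within 500 bp (or 1000 bp) of its 5' end, the gene's first base on its strand. A replicate value is that of the strongest region holding the IDR summit. All lincRNA genes at an IDR summit are named, with the 5 strongest below the threshold, the genes at the window's edge and the genes sharing a summit. Members, lists, motifs and comparisons were chosen with earlier results of these data known. Genes are not replicates, and no test across genes was made. The assignment was tested on simulated summits. Python 3.11.15, numpy 2.4.6, scipy 1.17.1, pandas 2.3.3 and matplotlib 3.10.9 were used.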

Additional observations from a re-analysis of the deposited data

How the results depend on the processing

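The count of 11 lincRNA genes within 500 bp was 5 with a 250 bp window, 20 with 1000 bp and 6 among the 947 strongest IDR peaks. Distinct summits were 5, 21 and 6, genes with the nearest 5' end 3, 11 and 4 (7 at 500 bp), and genes sharing a summit 2, 17 and 3 (6 at 500 bp) under these settings. The 20 genes within 1000 bp were 9 among the 947 strongest peaks. The 67 genes with a pooled summit were 43 with 250 bp and 42 with the stronger part of the list. The 46 genes in both replicate lists were 27 with 250 bp, 77 with 1000 bp and 29 with the stronger part of each list. CACGTG was at 1 summit with 50 bp on each side. The other 42 of 61 alternatives stayed within 1.5 times. Leaving out a replicate and taking the 1894 strongest peaks of the other gave 11 to 12 genes within 500 bp and 20 to 22 within 1000 bp. Of the 11 genes, 8 were kept without either replicate: M04F3.7 was lost both ways, linc-37 without replicate 1 and linc-126 without replicate 2. Without the summit in repeated sequence, an alternative chosen after seeing the data, 10 genes remained within 500 bp and 19 within 1000 bp. No paired analysis was possible because there is a single group. Read depth is unknown, and the small number of genes limits every share.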
